A study of Rattus norvegicus with 11 samples.

Results

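The Dlk1-Dio3 domain on rat chromosome 6 carries one of the largest groups of microRNA genes in mammals. Rows of the deposited table were taken as members when they carried a rat microRNA name with 1 of 45 numbers known from this domain, whatever the letter or arm. Of these numbers, 39 had a row, which gave 60 member rows of 1331 in the table (533 with rat microRNA names, the others with names of predicted microRNAs). The table came from small RNA sequencing of liver. The animals were male Sprague-Dawley rats, which are outbred, and they were 4 weeks old at the start. For 7 days, 6 Control rats had chow and 0.9% saline given into a vein, and 5 TPN rats had total parenteral nutrition, where feeding is entirely by infusion. The labels give no genetic change, disease model or cell sort for either group, and each library is named here by its group and its rat number. Whole liver was sequenced, so fewer cells of a type and less RNA per cell cannot be told apart.

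In this domain the 2 parental chromosomes are used differently, which is called imprinting. In mice, the chromosome from the father expresses the protein genes Dlk1, a regulator of growth and differentiation, Rtl1, needed in the placenta, and Dio3, an enzyme that inactivates thyroid hormone, while the chromosome from the mother expresses the long RNA Meg3 and the microRNAs that lie downstream of it. These microRNAs are abundant in embryo, placenta and brain and scarce in most adult tissues, liver included. In mice, loss of the group of microRNA genes that runs from miR-379 to miR-410 impairs the metabolic adaptation of the newborn. The series is titled for ferroptosis, a form of cell death that depends on iron, and for the liver disease that goes with intestinal failure, and its title names no imprinted gene.

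The mature sequences below are those of RefSeq (GRCr8), written 5′ to 3′ with the seed, bases 2 to 8, in capitals. The seed is the stretch by which a microRNA mainly recognizes its targets. The first 7 are the members that reached a mean of 1 count per 1000000 reads (CPM) over the libraries, in the order of their mean.
miR-379-5p: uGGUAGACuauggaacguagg
miR-127-3p: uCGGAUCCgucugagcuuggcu
miR-411-5p: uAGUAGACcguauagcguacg
miR-541-5p: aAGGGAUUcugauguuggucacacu
miR-299a-3p: uAUGUGGGacgguaaaccgcu
miR-136-3p: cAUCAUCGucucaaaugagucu
miR-409a-5p: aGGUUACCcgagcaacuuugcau

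The next sequences are shown because miR-431 had reads in TPN rats alone, because the pairs miR-299b-3p with miR-299a-3p, miR-300-3p with miR-381-3p, and miR-376a-3p with miR-376b-3p are so alike that reads could be assigned to the wrong row, and because miR-539-3p shares its seed with miR-381-3p.
miR-431: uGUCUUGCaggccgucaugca
miR-299b-3p: uAUGUGGGacgguaaac
miR-300-3p: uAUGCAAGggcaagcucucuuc
miR-381-3p: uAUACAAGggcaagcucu
miR-539-3p: cAUACAAGgguaauuucuuuuc
miR-376a-3p: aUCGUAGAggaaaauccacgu
miR-376b-3p: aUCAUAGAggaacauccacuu

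Of the 60 members, 57 had a mature sequence in RefSeq and all 57 lay on chromosome 6, 56 of them on the plus strand. These 57 sequences were 17 to 25 bases long and held 55 different seeds, so the members do not form a seed family. One shared seed was AUGUGGG, in miR-299a-3p and miR-299b-3p, and the other was AUACAAG, in miR-381-3p and miR-539-3p. The seeds of the abundant miR-379-5p and of miR-411-5p differed at 1 of 7 bases, by the substitution G2A (positions counted from 1 at the 5′ end, miR-379-5p first). The seed of miR-300-3p was 1 substitution, G4A, from that of miR-381-3p, and over the 18 bases of miR-381-3p this was the single difference between them. The seeds of miR-376b-3p and miR-376a-3p differed by A4G, and over 21 bases these sequences had 3 differences. The whole sequence of miR-299b-3p was contained in that of miR-299a-3p, so the division of reads between these rows is uncertain.

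The cluster was a minor part of the liver libraries. Recovered reads, the whole numbers behind the deposited CPM, ran from 1404858 in Control 12 to 14788757 in TPN 8, and 5410 of all reads belonged to members. The summed level of the 60 members was 85.6, 107.2, 57.0, 43.6, 75.5 and 18.1 CPM in Control 5, 7, 12, 16, 18 and 19. It was 33.4, 65.1, 51.4, 47.4 and 110.2 CPM in TPN 6, 8, 11, 15 and 16. The groups overlapped over most of their range, with the lowest value in a Control rat and the highest in a TPN rat, and single rats differed 6.09-fold. Control averaged 64.5 CPM ± 31.7 (SD, n = 6), and TPN averaged 61.5 CPM ± 29.5 (SD, n = 5), a difference of -2.98 CPM. That difference ran from -15.1 CPM without TPN 16 to 5.56 CPM without Control 7, and was positive also without Control 5, TPN 6 or TPN 15. With TMM-scaled CPM it was 16.3 CPM, so its sign depended on the scaling too.

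**Figure D1:**
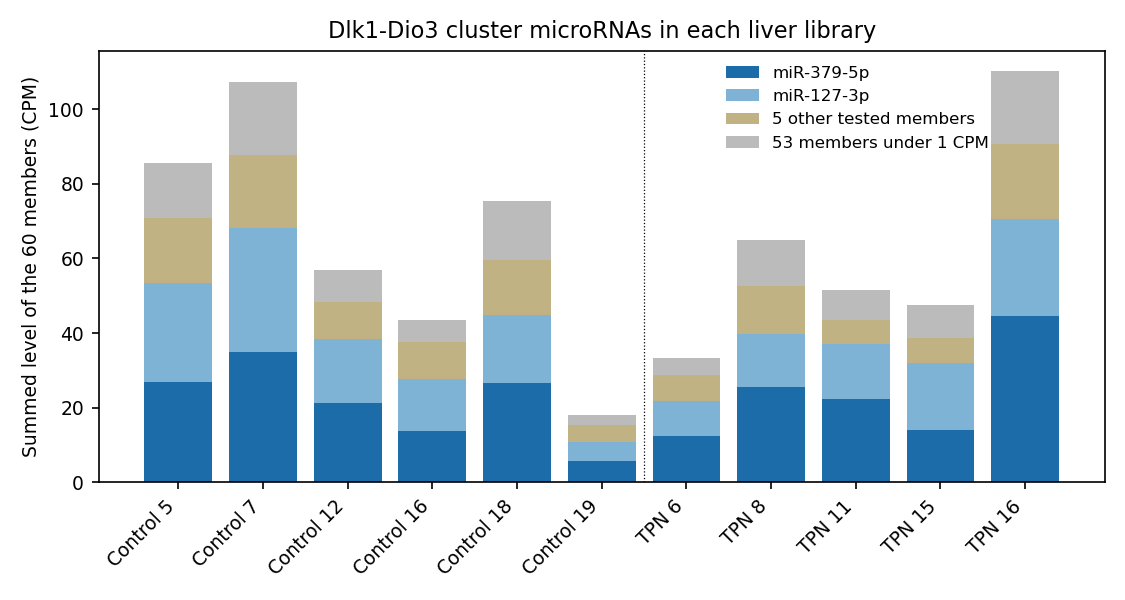
Summed level of the 60 members in each library, in CPM, with 1 bar for each rat and Control and TPN separated by the dotted line; the blocks of a bar are miR-379-5p, miR-127-3p, the 5 other members with a mean of at least 1 CPM, and the 53 members under it. Bars run from 18.1 CPM in Control 19 to 110.2 CPM in TPN 16, and both groups hold high and low bars.

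A few facts of the libraries bear on these values. Control 5, 12 and 19 had the fewest reads, and predicted microRNAs took 0.517%, 2.0% and 0.56% of their reads against 0.0965% to 0.145% in the other libraries. Without these 3 libraries the difference in summed level was -13.9 CPM. A list of 10 rows of hepatocyte microRNAs (miR-122, miR-148a, miR-192, miR-194 and miR-802, both arms) dominated every library. It made up 564751 to 797136 CPM in Control and 719836 to 785615 CPM in TPN. Most of that sum was 1 row, miR-148a-3p, with a Control mean of 477574 CPM ± 90153 (SD, n = 6) and a TPN mean of 563009 CPM ± 74472 (SD, n = 5). In that list the liver-specific miR-122-5p had a Control mean of 157344 CPM ± 141564 (SD, n = 6) and a TPN mean of 137326 CPM ± 92956 (SD, n = 5). The labels state neither a batch nor whether libraries were prepared separately for each liver, beyond naming each sample as a rat, so p-values measure the spread between these samples.

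The 2 most abundant members, miR-379-5p and miR-127-3p, held 36.1% and 27.7% of all member reads, together 63.7%. They come from different groups of hairpins: miR-127 lies antisense to Rtl1 and is known in mice to direct the cleavage of the Rtl1 RNA, and miR-379 is the first gene of the group that runs to miR-410. Among the 533 rows with rat names, miR-379-5p stood 133rd by mean CPM (between 100th and 194th in single libraries) and miR-127-3p 148th (between 119th and 201st). Their levels in CPM are not scaled by length, and their RefSeq sequences are 21 and 22 bases long. The members with a sequence there run from 17 to 25 bases.

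In Control 5, 7, 12, 16, 18 and 19, miR-379-5p was at 27.0, 34.8, 21.4, 13.8, 26.6 and 5.80 CPM. In TPN 6, 8, 11, 15 and 16 it was at 12.3, 25.6, 22.3, 13.9 and 44.5 CPM. TPN 16 was the highest rat and Control 19 the lowest, and all other TPN rats lay within the range of the Control rats. Control averaged 21.6 CPM ± 10.4 (SD, n = 6), and the TPN mean was 23.7 CPM ± 12.9 (SD, n = 5). The log2 fold change was 0.17 ± 0.45 (SE), with a 95% interval of -0.80 to 1.13 and an adjusted p of 0.857 (limma-trend on log2(CPM + 1), Benjamini-Hochberg over 535 rows). An SD of 2.60 CPM in Control and 1.61 CPM in TPN would come from counting reads alone, so most of the spread between rats lies beyond counting error. The log2 fold change was 0.62 with TMM, 0.49 with RLE and 0.79 with upper-quartile scaling, 0.57 with edgeR, 0.49 with DESeq2 and 0.60 with limma-voom, again with no call. It was negative without Control 19 (-0.14) or TPN 16 (-0.09).

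In the same order of Control rats, miR-127-3p was at 26.5, 33.4, 17.1, 14.0, 18.3 and 5.12 CPM. In the TPN rats it was at 9.43, 14.1, 14.7, 17.96 and 26.0 CPM. Control 7 was the highest and Control 19 the lowest, and every TPN rat lay within the Control range. The means were 19.1 CPM ± 9.83 (SD, n = 6) and 16.4 CPM ± 6.13 (SD, n = 5), with a log2 fold change of -0.09 ± 0.41 (SE), a 95% interval of -0.98 to 0.80 and an adjusted p of 0.946. This sign was not stable: it turned positive with TMM, RLE and upper-quartile scaling and with edgeR, DESeq2 and limma-voom, and without Control 5, Control 7 or TPN 6.

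The next members were several times rarer. miR-411-5p, whose gene neighbours miR-379, was at 5.40, 6.08, 2.85, 3.18, 4.74 and 1.02 CPM in the Control rats and at 1.40, 2.64, 2.92, 0.958 and 8.08 CPM in the TPN rats. TPN 16 stood above all other libraries, while the other TPN rats lay between 0.958 and 2.92 CPM, among the lower Control values. Its log2 fold change was -0.33 ± 0.45 (SE; adjusted p = 0.686), and without TPN 16 it was -0.66. miR-541-5p was at 3.60, 4.12, 4.27, 2.91, 4.37 and 1.02 CPM in Control and at 1.16, 2.84, 1.52, 2.51 and 5.43 CPM in TPN. It too was highest in TPN 16 and lowest in Control 19, and the other TPN rats lay under all Control rats other than Control 19. Its log2 fold change was -0.28 ± 0.38 (SE; adjusted p = 0.68). Both of these values turned positive with TMM and upper-quartile scaling and with edgeR.

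Of the other tested members, miR-299a-3p was at 2.31, 4.12, 0.712, 1.99, 1.37 and 1.36 CPM in Control and at 2.68, 3.79, 0.467, 1.08 and 3.05 CPM in TPN. Its highest rat was a Control and its lowest a TPN rat, and the log2 fold change was 0.06 ± 0.42 (SE; adjusted p = 0.962), negative without Control 12 or TPN 6, 8 or 16, and 0.23 (limma-voom) to 0.52 (edgeR) with the other scalings and tools. miR-136-3p, which like miR-127 is encoded antisense to Rtl1, was at 4.37, 2.65, 2.14, 1.06, 1.87 and 1.02 CPM in Control and at 1.05, 2.16, 1.17, 0.719 and 2.52 CPM in TPN. Control 5 and Control 7 were the highest, TPN 15 was the lowest, and the remaining rats of the groups were intermixed, with a log2 fold change of -0.31 ± 0.37 (SE; adjusted p = 0.634; 0.093 with upper-quartile scaling). miR-409a-5p was at 1.80, 2.65, 0, 0.662, 2.37 and 0 CPM in Control and at 0.815, 1.55, 0.583, 1.68 and 1.06 CPM in TPN. Its 2 values of 0 were in the shallow Control 12 and 19, where a count of 0 allows up to 2.14 and 1.02 CPM, and its log2 fold change was 0.09 ± 0.46 (SE; adjusted p = 0.952) and -0.10 without either of them, and 0.08 (DESeq2) to 0.34 (limma-voom) with the other scalings and tools. Here and below, such limits (3 reads of the total) and intervals allow for counting error alone, because molecular identifiers are not mentioned.

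**Figure D2:**
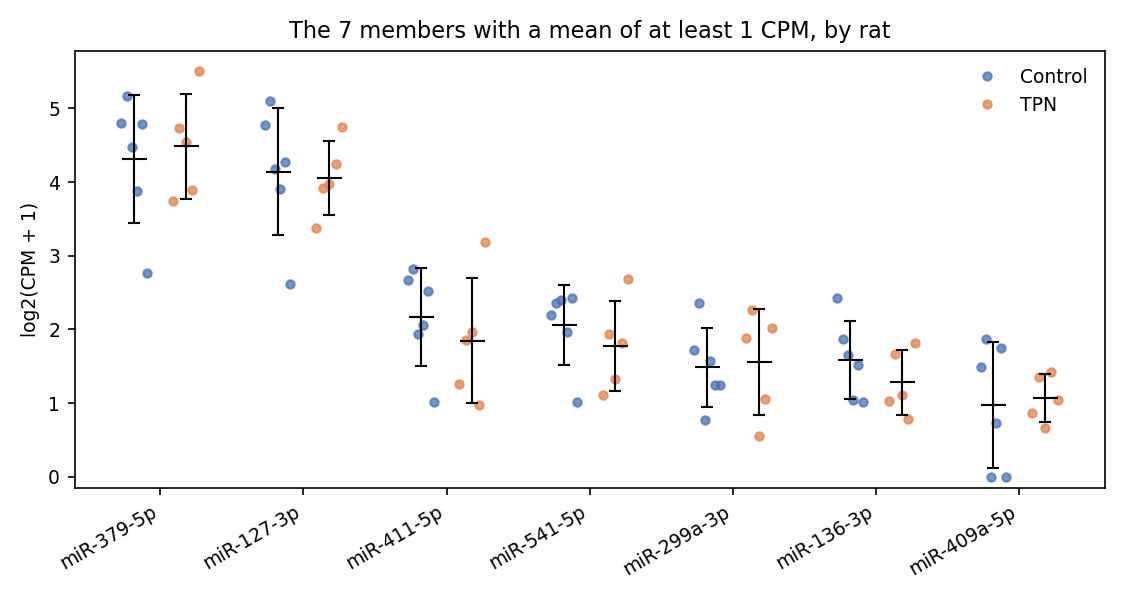
Level of the 7 tested members in each rat as log2(CPM + 1), with Control and TPN points side by side; the long horizontal line is the group mean and the whiskers are 1 SD (6 Control and 5 TPN rats). For each of the 7 members the Control and TPN points share most of their range.

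Thus none of the 7 tested members was called. At an adjusted p under 0.05, 0 of 535 rows (0%) passed in limma-trend, members included, and the smallest adjusted p of any member was 0.634 against 0.296 over all rows. At an unadjusted p under 0.05, 1 of 535 rows was higher in TPN (0.187%) and 60 were lower (11.2%), and 0 of the 7 members were among either. In 8 of the 535 rows (1.5%) the groups of rats did not overlap, and 0 of these were members. From recovered reads, 0 rows were called by edgeR or limma-voom and 113 by DESeq2, with 0 members among them. The intervals of the 7 members reached 0.90 on the log2 scale to either side of the estimate (median of the 7). Smaller changes could thus not be told from 0 at this number of rats. These intervals are not adjusted over the rows, so they set no limit for a call at an adjusted p under 0.05.

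The members' median lay above that of the rat-named rows under each scaling tried, and below it when certain libraries were left out. Of the 7, 3 had positive and 4 negative values, with a median log2 fold change of -0.09, while the median was -0.56 over all 535 tested rows and -0.26 over the 280 with rat names. Only 81 of the 535 rows (15.1%) had positive values. With TMM scaling the members' median became 0.28 and that of the rat-named rows 0.16, with RLE 0.23 and 0.04, and with upper-quartile scaling 0.34 and 0.31. Without Control 5, 12 and 19 all 7 members were negative, with a median of -0.38 against -0.28 for rat-named rows. Control 19, the library that was lowest without a tie in 3 of the 7 members, carried much of this: without it alone the medians were -0.39 and -0.32.

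**Figure D3:**
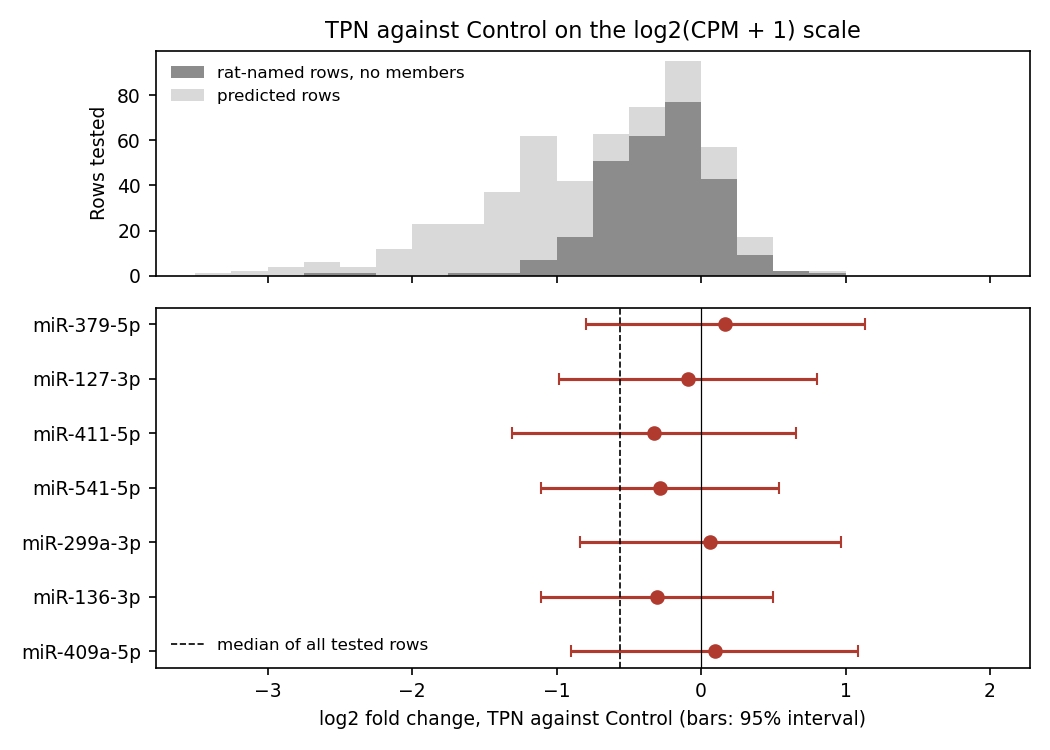
Upper panel, number of other tested rows by log2 fold change of TPN against Control on the log2(CPM + 1) scale, with rat-named and predicted rows stacked; lower panel, the 7 tested members with their 95% intervals, the solid line at 0 and the dashed line at the median of all 535 tested rows (-0.56). All 7 intervals include 0 and reach across that median.

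The fold range between rats was above that of the median rat-named microRNA for the 6 tested members with reads in every library. From the lowest to the highest rat, miR-379-5p differed 7.67-fold, miR-127-3p 6.52-fold, miR-411-5p 8.43-fold and miR-299a-3p 8.84-fold, against a median of 4.13-fold over the tested rat-named rows. The coefficient of variation of miR-379-5p was 48.2% in Control and 54.3% in TPN, and the medians over rat-named rows were 40.1% and 35.4%. For miR-127-3p it was 51.6% in Control and 37.3% in TPN. For miR-541-5p it was 37.7% in Control, under the median there, and 62.3% in TPN. Rare rows also vary through counting, so the values for the members near 1 CPM are less comparable with these medians. The same rats were at the extremes for several members. TPN 16 was highest in 3 of the 7 and in 2.5% of the tested rat-named rows, Control 7 was highest in 3 and in 12.9%, and Control 19 was lowest in 3 and in 27.9%. For miR-409a-5p, Control 19 also tied with Control 12 for lowest, at 0 CPM.

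The shares of the abundant members in the member reads had a narrower range between rats than the summed level (6.09-fold), and that of miR-299a-3p had a wider one. miR-379-5p took from 29.3% (TPN 15; exact 95% interval 24.9% to 34.0%) to 43.3% (TPN 11; 38.6% to 48.1%) of the member reads of a library, a 1.48-fold range. miR-127-3p took from 21.7% (TPN 8; 19.2% to 24.5%) to 37.9% (TPN 15; 33.1% to 42.9%). The 53 members under 1 CPM together took 13.6% to 21.0% in every library. The share of miR-299a-3p ranged 8.84-fold, from 0.907% in TPN 11 (exact 95% interval 0.248% to 2.31%) to 8.01% in TPN 6 (5.15% to 11.8%). The shares of miR-136-3p (3.74-fold), miR-411-5p (3.63-fold) and miR-541-5p (2.54-fold) had narrower ranges than the summed level. For miR-409a-5p no fold range exists, because its lowest share was 0%. The ratio of miR-379-5p to miR-127-3p had a Control mean of 1.15 ± 0.177 (SD, n = 6) and a TPN mean of 1.43 ± 0.413 (SD, n = 5). It was lowest (0.773) and highest (1.81) in TPN rats, and all Control rats lay between them.

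By position, the placed member genes fell into a group of 12 hairpins on the Dlk1 side and a group of 29 on the Dio3 side, divided at the widest gap between neighbouring hairpins, which follows miR-370. The order in RefSeq (GRCr8) was Dlk1, Meg3, miR-770, Rtl1, miR-370, miR-379, miR-410 and Dio3. The deposited table states no genome build, so the order is given and no coordinates. The Dlk1-side group had a Control mean of 24.9 CPM ± 12.5 (SD, n = 6) in sum and a TPN mean of 21.7 CPM ± 9.12 (SD, n = 5). The Dio3-side group summed to 39.6 CPM ± 19.5 in Control and 39.7 CPM ± 20.9 in TPN. The Dio3-side share of member reads was 53.8% to 68.9% over the rats, with means of 61.5% ± 2.90 and 63.6% ± 5.81, so neither end of the cluster differed between groups by more than the spread.

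**Figure D4:**
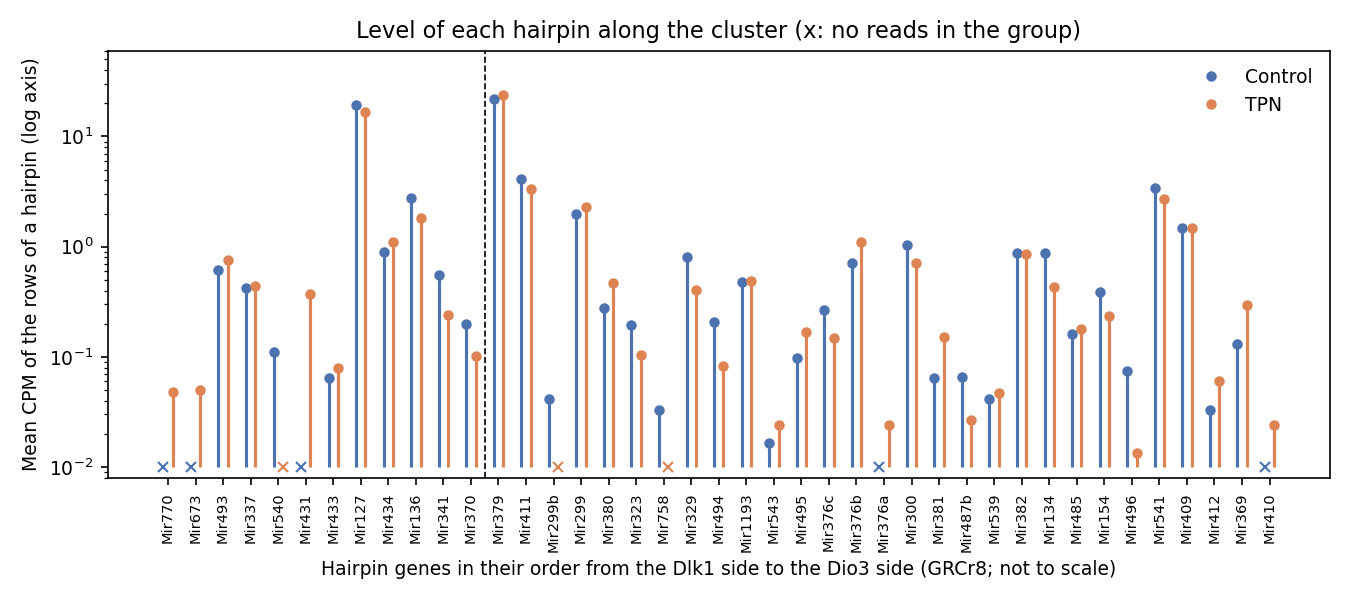
Mean level in CPM (log axis) of the rows of each hairpin in Control and TPN, in gene order from the Dlk1 side to the Dio3 side (not to scale); the dashed line divides the 12 Dlk1-side from the 29 Dio3-side hairpins and a cross marks a group with no reads. The highest stems are miR-127 on one side and miR-379 on the other, and neighbours such as miR-433 and miR-127 differ by orders of magnitude.

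Neighbouring genes gave very different amounts of mature microRNA. Next to miR-127-3p with 1497 reads lay miR-433-3p with 7, and miR-410-3p, at the far end of the group that begins with miR-379, had 1. A microRNA hairpin yields a 5p and a 3p arm, of which usually one accumulates. Of 18 hairpins with both arms in the table, 14 had at least 30 reads, and in all 14 the exact 95% interval of the leading arm's share lay above 50%. The 5p arm led in 8 and the 3p arm in 6. It was one-sided in miR-379 (5p, 99.3%; interval 98.9% to 99.6%), miR-541 (5p, 99.2%) and miR-127 (3p, 98.4%; 97.6% to 98.9%). Both arms were well represented in miR-376b (3p, 66.7%; 55.8% to 76.4%) and miR-434 (3p, 73.1%; 62.9% to 81.8%). The miR-376 family is known for editing of A to I within the seed in human and mouse brain, which a table of counts cannot show.

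The 53 members under a mean of 1 CPM had 954 reads in all. Of these, 28 had at least 10 reads over the 11 libraries and are named here, 25 had fewer, and 17 were seen in at most 2 libraries. Among the members on the Dlk1 side, miR-434-3p had 26 reads in Control and 42 in TPN, which is 0.765 CPM (exact 95% interval 0.5 to 1.12) and 0.878 CPM (0.632 to 1.19) of the pooled reads. miR-493-5p had 26 and 32 reads, miR-337-5p 13 and 19, miR-136-5p 14 and 14, miR-434-5p 13 and 12, and miR-127-5p 9 and 16. Since TPN had more reads in all (47855289 against 33976854), equal numbers stand for a lower pooled level in TPN. Means over rats need not follow the pooled level. Pooled, miR-493-5p was at 0.765 CPM in Control and 0.669 CPM in TPN, but its means over rats were 0.5428 and 0.7497 CPM. The means of miR-434-5p were nearly equal, at 0.2683 CPM in Control and 0.265 CPM in TPN. For miR-136-5p the mean was lower in TPN too, at 0.2949 CPM against 0.5581 CPM. miR-341 had 20 reads in all 6 Control rats and 12 in 3 of the 5 TPN rats, 0.589 CPM (0.36 to 0.909) against 0.251 CPM (0.13 to 0.438). Its adjusted p with no filter was 0.528 in limma-trend and 0.727 in edgeR.

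On the Dio3 side, miR-300-3p was the most abundant of the rare members, with 43 reads in Control and 40 in TPN, 19 of them in Control 7 and 24 in TPN 8. miR-382-3p had 31 and 32 reads and miR-382-5p 6 and 9. miR-134-5p, which in rat neurons restrains the growth of dendritic spines through Limk1, had 30 reads in Control and 20 in TPN, 0.883 CPM (0.596 to 1.26) against 0.418 CPM (0.255 to 0.646), with adjusted p of 0.601 in limma-trend and 0.758 in edgeR. In the miR-376 family, miR-376b-3p had 22 and 36 reads, miR-376b-5p 13 and 16, and miR-376c-3p 9 and 8. miR-1193-3p had 24 reads in Control, 18 of them in Control 7, and 23 in TPN. miR-329-5p had 21 and 17 reads, and miR-380-5p had 8 and 23. Pooled, miR-380-5p was at 0.235 CPM (0.102 to 0.464) and 0.481 CPM (0.305 to 0.721), with overlapping intervals and an adjusted p of 0.543 in limma-trend. The others, miR-154-5p, miR-409a-3p, miR-411-3p, miR-369-5p, miR-323-3p, miR-494-3p, miR-485-3p, miR-495, miR-379-3p and miR-381-3p, had between 10 and 26 reads over both groups, and each had reads in both.

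**Figure D5:**
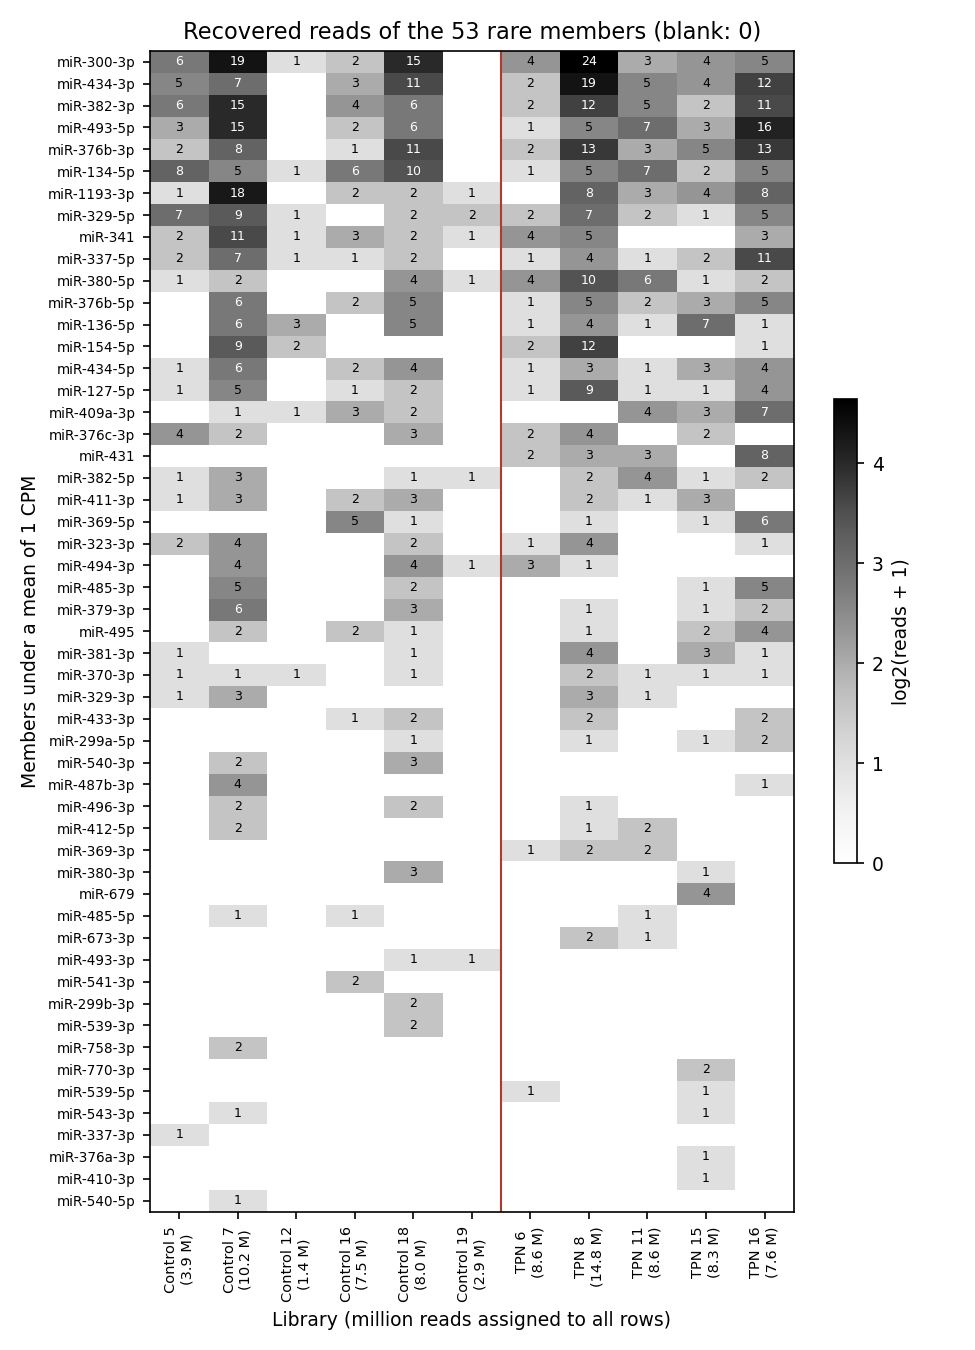
Recovered reads of the 53 members with a mean under 1 CPM (lines) in each library (columns, with its total reads under its name); shading is log2(reads + 1) and blank cells hold 0 reads. Control 12 and 19 are nearly empty, Control 7 and TPN 8, the deepest libraries, hold the most, and miR-431 is blank in all Control libraries.

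More members were seen in TPN, but not at equal depth. Members with at least 1 read numbered 28, 42, 15, 26, 42 and 13 in the Control rats and 28, 41, 31, 39 and 36 in the TPN rats, or 27.7 ± 12.6 (SD, n = 6) and 35 ± 5.43 (SD, n = 5). After thinning each library to the 1404858 reads of Control 12, the numbers expected were 17.02 ± 5.53 and 16.8 ± 4.10. Without the shallow Control 5, 12 and 19 the difference in members seen went from 7.33 to -1.67. Reads were found in TPN alone for 8 of the rare members and in Control alone for 8.

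miR-431, a microRNA antisense to Rtl1 that is known in mice to act on the Rtl1 RNA, was the 1 member with reads in at least 4 TPN rats and in no Control rat. It had 2, 3, 3, 0 and 8 reads in TPN 6, 8, 11, 15 and 16, and 0 reads in each of the 6 Control rats. Of 781 rows with reads under the filter, 3 showed this pattern (0.384%), and the others were miR-20a-3p and a predicted row. The 16 TPN reads were 0.334 CPM (exact 95% interval 0.191 to 0.543) pooled, or 0.199 CPM without TPN 16, and the 0 reads of 33976854 in Control allow up to 0.0883 CPM. With no filter, limma-trend over 1316 rows gave it an unadjusted p of 0.0222 and an adjusted p of 0.455, and edgeR gave 0.013 and 0.135. At an unadjusted p under 0.05 it was the only member higher in TPN in limma-trend, where 0.456% of all rows were. In edgeR, miR-431 and miR-369-3p (0 and 5 reads) were among the 1.06% of rows higher in TPN, and miR-540-3p (5 and 0 reads) was among the 32% lower. None of the 3 passed after adjustment. miR-433, the next gene after it, had 3 reads in Control and 4 in TPN for its 3p arm.

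Markers of other cell types were read beside the cluster, since bulk liver holds several. A list of 13 rows of neural microRNAs (among them miR-9a, miR-124 and miR-128) summed to 55.6 to 100.4 CPM in Control and 52.2 to 125 CPM in TPN, with a median log2 fold change of 0.006 over its 5 tested rows. Its neuron-defining member miR-124-3p had 1 read in all libraries together. The 9 rows of the stellate cell, fibroblast and smooth muscle list (such as miR-143-3p, miR-199a and miR-214) summed to 19954 to 38386 CPM in Control and 13752 to 29449 CPM in TPN. This list was highest in sum in Control 19, where the cluster was lowest. The next highest sums of the list were in Control 7 (30038 CPM), with the cluster at 107.2 CPM, and in TPN 6 (29449 CPM), with the cluster at 33.4 CPM. Of the 9 rows of this list, 7 had negative values. Most of the sum was 1 row, miR-143-3p, with means of 24458 CPM in Control and 18229 CPM in TPN. The 12 rows of the blood and immune cell list summed to 518 to 1195 CPM in Control and 458 to 801 CPM in TPN, with 8 of 9 tested rows negative, and the 4 red cell rows to 133 to 802 CPM and 31.3 to 261 CPM, with 3 of 3 negative. The 2 endothelial rows summed to 2019 to 6849 CPM and 3162 to 6568 CPM, with 1 of 2 negative. The 8 biliary and epithelial rows summed to 509 to 1230 CPM and 584 to 1759 CPM, with 2 of 7 tested rows negative. The 3 islet rows summed to 855 to 1386 CPM and 610 to 1010 CPM, but went in different directions. Their log2 fold changes were 0.53 for miR-375-3p, -0.70 for miR-7a-5p and -0.62 for miR-7a-1-3p. At an unadjusted p under 0.05 in limma-trend, miR-375-3p was the 1 tested row higher in TPN. Among the 60 rows lower in TPN (11.2%) were miR-7a-5p and all 3 tested red cell rows. The stellate cell, fibroblast and smooth muscle list had 2 such lower rows, and the blood and immune cell list and the biliary and epithelial list had 1 each. The neural and endothelial lists had 0. Counts of negative rows stand beside the whole table, where only 15.1% of the 535 tested rows had positive values. Over the 280 tested rows with rat names the median log2 fold change was -0.26. In each of these lists 0 rows were called by limma-trend, as in the whole table. Their part in the levels of the cluster was not tested.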

How the data were processed

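Small RNA libraries from the livers of 11 rats (6 Control, 5 TPN) were made from TRIzol-extracted RNA and sequenced by Illumina HiSeq (per the labels' protocols). The table deposited by the authors is in CPM, and each deposited column sums to 1000000. DESeq2 is named without a version or role, per the submitters' processing notes. Trimming, alignment, counting, microRNA database, genome build and any filter were not given in the sources used here. Dividing each column by its smallest value above 0 gave whole numbers for 100% of values (tolerance 0.001), the recovered reads. The smallest library (1404858 reads) resolves 0.712 CPM per read.

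The members and lists were chosen with earlier results of these data known. Limma-trend (R 4.3.3, limma 3.58.1) was run on log2(CPM + 1) over the 535 rows averaging 1 CPM or more, all rats, no covariate, with Benjamini-Hochberg adjustment over all rows. Its fold changes understate those of rare rows. Alternatives were edgeR 4.0.16 (quasi-likelihood), DESeq2 1.42.0 and limma-voom on recovered reads, TMM, RLE and upper-quartile scaling, a pseudocount of 0.5, filters of 0 and 10 CPM, rat-named rows only, and leaving out libraries. Each member's values, counts and shares are given without tests of their own. Shares and pooled levels carry exact Clopper-Pearson 95% intervals. The text names every member with a mean of at least 1 CPM and every rarer one with at least 10 reads, and further names were picked with their values in view. All pairs of libraries differed by more than sampling noise (smallest chi-square per degree of freedom 168, for Control 16 against Control 18). The fits were tested on simulated data. Gene order and sequences came from RefSeq (GRCr8), without coordinates. Figures were drawn with matplotlib 3.10.9.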

Additional observations from a re-analysis of the deposited data

Results flagged for a closer look

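A rat far from the others of its group was looked for in 56 groups of values, each from the Control or the TPN rats. The values were levels of single members, or sums, shares, ratios and counts over the members. Of the 56 groups, 4 held such a rat, where chance flags about 1 in 20, and all 4 were levels of single members. In TPN 16, miR-411-5p was at 8.08 CPM, with the next TPN rat at 2.92 CPM. In the same rat miR-337-5p was at 1.46 CPM, with the next at 0.27 CPM. miR-1193-3p was at 1.77 CPM in Control 7, with the next Control rat at 0.341 CPM. miR-300-3p was at 1.62 CPM in TPN 8, with the next TPN rat at 0.662 CPM. TPN 16 and Control 7 had the highest summed levels of the cluster in their groups.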

How the results depend on the processing

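No member was called by limma-trend under the scalings, pseudocount and filters tried or without any library, nor by edgeR, limma-voom or DESeq2 with all libraries. The rows called over the whole table went from 0 to 113 with DESeq2, and stayed at 0 under every other alternative. The signs of the tested members were not stable, from 1 reversal in 21 alternatives for miR-136-3p to 9 in 22 for miR-127-3p. With TMM scaling miR-127-3p turned to 0.36, miR-411-5p to 0.009 and miR-541-5p to 0.042. With RLE miR-127-3p was 0.23. With upper-quartile scaling miR-127-3p was 0.52, miR-136-3p 0.093, miR-411-5p 0.13 and miR-541-5p 0.17. With edgeR miR-127-3p was 0.24, miR-411-5p 0.14 and miR-541-5p 0.071, with DESeq2 miR-127-3p was 0.17 and miR-411-5p 0.046, and with limma-voom miR-127-3p was 0.31. Without Control 5, 12 and 19 together miR-299a-3p was -0.18, miR-379-5p -0.13 and miR-409a-5p -0.38. Leaving out 1 library kept miR-136-3p (-0.44 to -0.14), miR-411-5p (-0.66 to -0.11) and miR-541-5p (-0.51 to -0.12) negative. For the others, leaving out 1 library gave -0.39 to 0.10 for miR-127-3p, -0.11 to 0.31 for miR-299a-3p, -0.14 to 0.36 for miR-379-5p and -0.10 to 0.27 for miR-409a-5p. The median of the 7 ran from -0.39 to 0.10. These sign changes are within the intervals of the values, and their cause was not tested. A filter at 10 CPM left miR-379-5p and miR-127-3p alone of the 7, so the others have no value there. No paired analysis was possible because the groups share only the rat number 16, and such a number names a rat. Depth limits the rare members: 0 reads allow 0.203 CPM in TPN 8 and 2.14 CPM in Control 12.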

Other observations

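Of other imprinted loci, 9 rows were measured and 1 passed the filter of 1 CPM. miR-335, encoded within Mest, a gene expressed from the chromosome of the father, was at 32.9, 34.7, 13.5, 11.8, 12.7 and 32.1 CPM in Control 5, 7, 12, 16, 18 and 19 and at 15.1, 12.7, 6.65, 14.2 and 7.02 CPM in TPN 6, 8, 11, 15 and 16. Control 5, 7 and 19 stood above all other rats, and the remaining rats of the groups were intermixed. Its log2 fold change was -0.90 ± 0.38 (SE), with an adjusted p of 0.296 in limma-trend. The others were rare. miR-675-3p, made from the H19 RNA, had 6 reads in Control and 22 in TPN, 13 of them in TPN 8. The arms of miR-296, from the Gnas domain, went in opposite directions in reads: miR-296-5p had 10 in Control and 2 in TPN, and miR-296-3p had 1 in Control and 11 in TPN. With no filter the adjusted p of each arm was 0.455.

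miR-6331, which lies within the Dlk1-Dio3 domain in RefSeq (GRCr8) but is not among the member numbers, had 14 reads in Control and 9 in TPN. The neural list was highest in TPN 15, where miR-129-5p had 78 of its 104 TPN reads (9.34 CPM), against at most 0.927 CPM in any other rat. Member reads in TPN 15 were not high, at 47.4 CPM in sum.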
